A study of Mus musculus with 4 samples.

Results

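The 47 genes described here are interferon-stimulated genes, chosen by gene symbol from the 24706 genes listed for each of 4 libraries. By textbook role, 27 are antiviral effectors induced mainly by type I interferon (the Ifit and Oas families, Isg15, Rsad2 and others), 3 are RIG-I-like RNA sensors, 4 are transcription factors of the response, 4 are IFITM membrane proteins and 9 are GTPases induced mainly by interferon-gamma (the Gbp and Irgm families, Igtp, Iigp1 and Ifi47). All 47 had a row in every library, and 43 reached a mean of 1 FPKM (the standard unit of fragments per kilobase of exon, scaled to the reads of the library) over the libraries and were tested.

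The study asked how loss of PD-1, the inhibitory receptor encoded by Pdcd1, from the myeloid lineage alters these cells in mice. RNA-seq was done on 4 libraries labelled as myeloid cells, 2 with the genotype wt (wt1, wt2) and 2 with the genotype cko (cko1, cko2). The study's text gives the genotypes as PD-1f/f, in which LoxP sites flank part of Pdcd1, and PD-1f/f; LysM-Cre, in which Cre under the control of the lysozyme 2 locus deletes that part in myeloid cells, so that both groups carried the floxed allele; its methods call the controls wild-type. The results describe CD11b+ cells sorted from P3 liver and the methods describe P2 fetal liver, and the number of mice behind a library is not given in the sources used here. The labels name no treatment. Nothing states that the libraries of a group came from separate animals, so that p-values measure the spread between these libraries.

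Interferons are cytokines that act through JAK kinases and STAT transcription factors. Type I interferons signal through the receptor IFNAR to a complex with STAT2 and IRF9 that binds the interferon-stimulated response element (ISRE), whereas interferon-gamma signals through IFNGR to factors that bind the gamma-activated site (GAS). Many targets answer to both, and macrophages and monocytes hold low levels of such transcripts without infection.

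The libraries held 17691505 to 22212407 counted reads. Pdcd1 was listed at 28.5 FPKM in wt1, 34.7 in wt2, 17.1 in cko1 and 21.4 in cko2, lower in both cko libraries (log2 difference -0.69 ± 0.19 SE, Benjamini-Hochberg adjusted p = 0.218 in limma). These values cover all exons, not the floxed part alone. Lyz2, whose locus carries the Cre, was at 31306 and 32147 FPKM in wt1 and wt2 and at 10422 and 8127 FPKM in cko1 and cko2. Itgam, which encodes CD11b, was at 48.5 to 54.3 FPKM in the 4 libraries. Of the late neutrophil markers, Ngp was at 35443 to 46573 FPKM but Ly6g at 143 to 351 FPKM, where the monocyte gene Ly6c2 was at 315 to 360 FPKM and the Kupffer cell gene Vsig4 at 13.3 to 23.0 FPKM. The 6 late neutrophil markers summed to 75084 and 74845 FPKM in wt1 and wt2 and to 66593 and 51586 FPKM in cko1 and cko2, and 5 of them were lower in both cko libraries than in both wt libraries (18% of all tested genes were). In such bulk libraries, fewer cells of a type and less RNA per cell cannot be told apart. Of 7 erythroid markers, 6 were lower in both cko libraries than in both wt libraries, with a summed level of 3355 and 2273 FPKM in wt1 and wt2 and of 1378 and 1472 FPKM in cko1 and cko2.

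Promoters of 7 members are shown because the members differed in how they behaved across the libraries: Isg15 and Ifit1 did not follow the genotype, Plscr1, Irf1 and Ifitm1 did, and Gbp2 and Gbp5 were high in cko2. Each is the 250 bases before a RefSeq start (GRCm38.p6), 5′ to 3′ on the gene's strand, with matches to 3 motifs in capitals. The motifs were the ISRE core (GAAA, any 2 bases, GAAA), the GAS (TTC, any 3 bases, GAA) and the NF-kB site consensus, searched on both strands, so that an ISRE can read as TTTC, 2 bases, TTTC. Adjoining or overlapping matches run together in capitals, as in Isg15. For Ifit1, Plscr1, Ifitm1, Gbp2 and Gbp5 the RefSeq start lies inside the span that the files give the gene, which begins further upstream.
Isg15, chr4:156200819-156201068, minus strand: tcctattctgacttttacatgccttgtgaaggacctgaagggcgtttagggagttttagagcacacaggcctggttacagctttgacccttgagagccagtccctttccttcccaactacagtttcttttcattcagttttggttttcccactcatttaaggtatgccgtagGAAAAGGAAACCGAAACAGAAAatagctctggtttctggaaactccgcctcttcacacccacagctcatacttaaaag
Ifit1, chr19:34640639-34640888, plus strand: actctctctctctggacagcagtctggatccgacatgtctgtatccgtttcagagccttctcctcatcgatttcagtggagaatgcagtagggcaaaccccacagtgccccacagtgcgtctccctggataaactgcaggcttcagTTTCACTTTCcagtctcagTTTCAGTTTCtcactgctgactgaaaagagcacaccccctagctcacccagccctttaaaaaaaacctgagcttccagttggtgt
Plscr1, chr9:92249944-92250193, plus strand: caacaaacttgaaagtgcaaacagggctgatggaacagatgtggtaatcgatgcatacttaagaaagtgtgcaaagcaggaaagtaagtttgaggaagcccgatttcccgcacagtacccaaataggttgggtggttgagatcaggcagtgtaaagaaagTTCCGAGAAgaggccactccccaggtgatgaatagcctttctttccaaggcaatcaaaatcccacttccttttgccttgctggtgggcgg
Irf1, chr11:53769764-53770013, plus strand: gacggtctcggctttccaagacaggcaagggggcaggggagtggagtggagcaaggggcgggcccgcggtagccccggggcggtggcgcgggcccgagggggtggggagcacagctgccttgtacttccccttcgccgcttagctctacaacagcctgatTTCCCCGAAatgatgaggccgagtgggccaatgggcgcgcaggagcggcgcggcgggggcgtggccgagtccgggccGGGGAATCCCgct
Ifitm1, chr7:140967826-140968075, plus strand: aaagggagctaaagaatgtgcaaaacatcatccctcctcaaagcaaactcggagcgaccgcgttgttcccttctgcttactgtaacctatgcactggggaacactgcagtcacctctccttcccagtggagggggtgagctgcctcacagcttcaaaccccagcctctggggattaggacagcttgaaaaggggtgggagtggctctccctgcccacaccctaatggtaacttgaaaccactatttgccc
Gbp2, chr3:142620413-142620662, plus strand: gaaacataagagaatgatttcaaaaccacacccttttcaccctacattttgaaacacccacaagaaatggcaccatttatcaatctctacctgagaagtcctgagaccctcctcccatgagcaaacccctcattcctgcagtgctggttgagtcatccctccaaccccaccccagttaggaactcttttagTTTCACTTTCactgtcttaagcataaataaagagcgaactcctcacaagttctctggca
Gbp5, chr3:142496684-142496933, plus strand: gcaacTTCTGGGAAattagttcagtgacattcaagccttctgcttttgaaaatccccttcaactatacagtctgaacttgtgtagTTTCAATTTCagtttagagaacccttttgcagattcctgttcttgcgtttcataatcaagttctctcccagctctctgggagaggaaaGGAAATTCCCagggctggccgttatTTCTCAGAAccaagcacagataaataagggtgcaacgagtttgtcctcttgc

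Isg15 carried 3 overlapping ISRE matches from 78 to 57 bases before its start, and Ifit1 carried 2, at 104 to 95 and 85 to 76 bases. Plscr1 carried no ISRE match but 1 GAS match at 90 to 82 bases before its start. Irf1 had a GAS match at the same distance, 90 to 82 bases, and an NF-kB match at 13 to 4 bases before the start, and no ISRE match. Ifitm1 had no match to any of the 3 motifs in this window. Gbp2 had 1 ISRE match at 59 to 50 bases, and Gbp5 had 1 ISRE, 2 GAS and 1 NF-kB match. The windows of Plscr1, Irf1 and Ifitm1 thus held no ISRE core, which says only that these letters are not in these windows. Promoters not printed here did not divide in this way. Where both cko libraries were above both wt libraries, Trim30a, Stat2 and Ifitm2 held an ISRE match, and Ifitm3 and Ifitm6 held none. Where both cko libraries were below, Ifit3b, Oas3 and Rsad2 held an ISRE match, and Ifit2, Ifi35 and Cmpk2 held none.

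Of the 47 members, 38 had a promoter in the RefSeq table. A gene was counted if any of its promoter windows held a match. An ISRE match was found in 19 of these 38 (50%), against 3.46% of the 27025 genes with a promoter of this length. A GAS match was found in 11 (28.9%, against 8.13% of all genes) and an NF-kB match in 8 (21.1%, against 8.23%). The ISRE was present in 10 of the 20 type I effectors with a promoter and in 7 of the 8 interferon-gamma GTPases, among which Ifi47 was the one without a match. The GAS was present in 4 of those 8, namely Gbp5, Gbp7, Igtp and Irgm2, and in 5 of the 20 type I effectors.

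Of the 43 tested members, 3 were higher in cko than in wt at |log2FC| above 1 with an unadjusted p under 0.01, a threshold used in the study: the membrane protein gene Ifitm1, the phospholipid scramblase gene Plscr1 and the transcription factor gene Irf1. The same threshold was passed upwards by 1.88% of the 10779 genes tested. No member was lower by it, against 0.408% of all genes. Over all genes, 203 were higher and 44 lower; the split was 142 and 72 with median-of-ratios scaling, 468 and 32 with TPM scaling and 350 and 17 with erythroid and hepatocyte genes removed, and the same 3 members were called in each. After adjustment (Benjamini-Hochberg adjusted p under 0.05 in limma, with |log2FC| of 1 or more) no member passed, and the share of all genes was 0% too. At an unadjusted p under 0.05, with no limit on the fold, 9 members were higher and 0 lower in cko, against 11.4% and 4.95% of all genes. The 9 were Ifitm1, Ifitm2, Ifitm3, Ifitm6, Plscr1, Irf1, Oas2, Trim30a and Gbp2. The 2 cko libraries lay above the 2 wt libraries in 11 members and below them in 6, where 33.6% and 18% of all tested genes did so. The 6 below were Ifit2, Ifit3b, Oas3, Rsad2, Ifi35 and Cmpk2, all of them among the 23 tested type I effectors, of which 3 lay above. The share of members that did not overlap upwards, 25.6%, was thus below that of all genes. With TPM scaling (46 members tested) or with erythroid and hepatocyte genes removed, 17 members lay above and 0 below. The share of all genes was not computed under these scalings, which moved the median log2FC of all genes from 0.09 to 0.30 and 0.27. The member Gbp5 passed the filter on low values only through cko, and without it 10 of 42 (23.8%) did not overlap upwards. The median log2FC was 0.25 over the members (0.19 without Gbp5) and 0.09 over all tested genes. It was 0.40 without wt1, 0.03 without wt2, 0.59 without cko1 and -0.09 without cko2, so that it changed sign without cko2 and fell below the median of all genes without wt2.

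**Figure D1:**
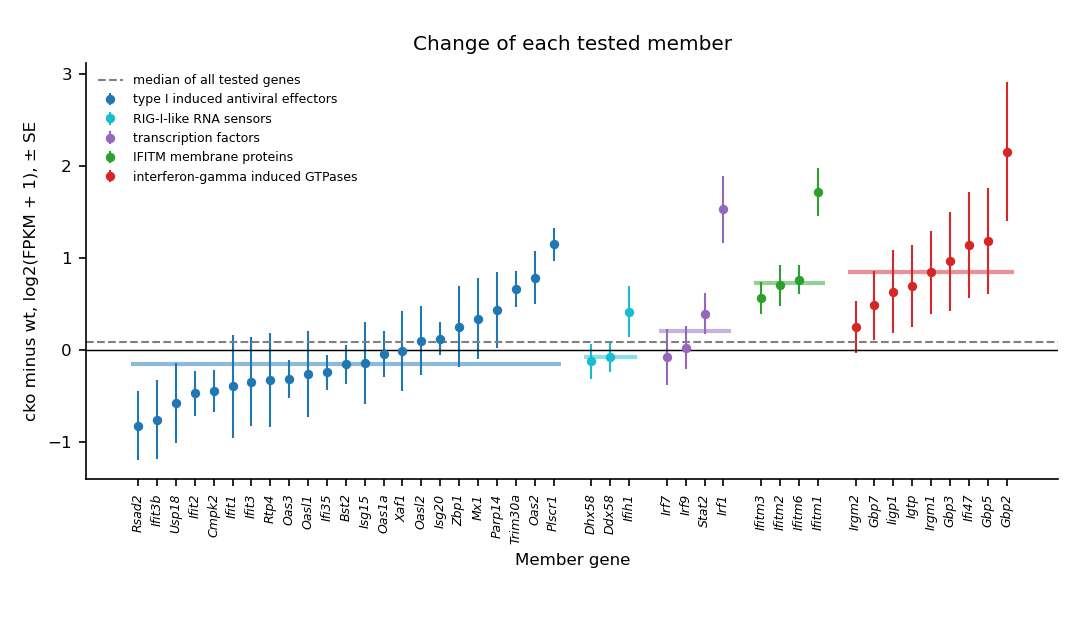
The log2 difference between cko and wt on the log2(FPKM + 1) scale (y axis) for each of the 43 tested members (x axis), with its standard error from limma, coloured by group; thick lines are the group medians and the dashed line is the median of all tested genes, 0.09. The 9 interferon-gamma GTPases (Gbp5 by way of the filter) and 4 IFITM genes all lie above 0, whereas 15 of the 23 type I effectors lie below it (11 of 23 once erythroid and hepatocyte genes are removed from the totals).

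The groups of members differed in their values. The median log2FC was -0.15 for the 23 tested type I effectors, of which 8 were above 0 and 15 below. It was 0.85 for the 9 interferon-gamma GTPases, or 0.77 for the 8 without Gbp5, and 0.74 for the 4 IFITM genes, all of which were above 0. The RNA sensors had a median of -0.07 (1 above 0, 2 below) and the transcription factors of 0.21 (3 above, 1 below). These medians carry no test, since the members were chosen by name with results of these data known. Scaling each library to the same total (TPM) moved the median of all genes from 0.09 to 0.30, and removing erythroid and hepatocyte genes from the totals moved it to 0.27. The median of the type I effectors was -0.08 and 0.02 under these scalings, with 15 of 26 and 11 of 23 below 0, and that of the GTPases, Gbp5 included, was 1.13 and 1.03. Without wt1 or without cko1, 13 and 16 of the 23 type I effectors were above 0, and without cko2, 3 of the 9 GTPases were below 0.

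The best known type I effectors, Isg15 and Ifit1, did not separate by genotype. Isg15, which encodes a ubiquitin-like protein attached to other proteins during the response, was listed at 3.10 FPKM in wt1, 2.60 in wt2, 1.20 in cko1 and 4.56 in cko2, on 52, 37, 17 and 61 reads. Ifit1, whose product binds foreign RNA ends, was at 9.88, 3.90, 2.47 and 7.94 FPKM in wt1, wt2, cko1 and cko2. In both genes cko1 was the lowest of the 4 libraries while cko2 was above wt2, so that the groups overlapped. The log2FC was -0.13 ± 0.45 (SE) for Isg15 and -0.39 ± 0.56 for Ifit1, smaller than its standard error in each case.

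Rsad2, which encodes viperin, an antiviral enzyme of the endoplasmic reticulum, had the lowest log2FC of the members (-0.82 ± 0.37 SE, Benjamini-Hochberg adjusted p = 0.347 in limma). It was at 44.4 FPKM in wt1, 23.7 in wt2, 13.6 in cko1 and 23.6 in cko2. The values of wt2 and cko2 were nearly equal, and the difference rested on a high wt1 and a low cko1. Its neighbour on chromosome 12, Cmpk2, a mitochondrial nucleotide kinase gene, was at 29.5, 27.9, 16.7 and 25.9 FPKM in the same order (log2FC -0.44 ± 0.23). Ifit3b, an RNA-binding Ifit gene, was at 2.93, 2.31, 0.40 and 2.26 FPKM, with only cko1 set apart from the rest (log2FC -0.75 ± 0.43, adjusted p = 0.422 in limma, Benjamini-Hochberg).

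The 4 Ifit genes lie within 99.3 kb of chromosome 19 (chr19:34550694-34650009, GRCm38) and all had a log2FC below 0, from -0.75 to -0.34, but without wt1 or without cko1 2 of the 4 were above 0. Within each genotype they differed between libraries by 1.27 to 2.74 fold (wt1 over wt2) and by 1.16 to 5.65 fold (cko2 over cko1). Ifit3 and Ifit3b share 51.2% and 45% of their 50-base words with other genes, mostly with each other, so that the division of reads between them is uncertain. Usp18, the protease that removes ISG15 from proteins and dampens IFNAR signalling, was at 5.34, 2.59, 1.24 and 3.59 FPKM in wt1, wt2, cko1 and cko2 (log2FC -0.57 ± 0.44). Its order of libraries was that of Ifit1.

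The genes of the 2′-5′ oligoadenylate synthetase family on chromosome 5 did not share a direction. Oas2 was at 18.9, 14.8, 22.6 and 38.8 FPKM in wt1, wt2, cko1 and cko2, with both cko libraries above both wt libraries (log2FC 0.79 ± 0.28, adjusted p = 0.272 in limma, Benjamini-Hochberg). Oas3, its neighbour, was at 12.8, 12.2, 8.26 and 11.8 FPKM, with both cko libraries below both wt libraries (log2FC -0.31 ± 0.20, adjusted p = 0.478 in the same fit). The other tested members of the family, Oas1a, Oasl1 and Oasl2, had log2FC values from -0.26 to 0.11. Oas1a shares 57.6% of its 50-base words with Oas1g, and its level of 1.64 to 2.49 FPKM is uncertain for that reason.

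Plscr1, the only type I effector past the threshold, was the most abundant of that group. It was listed at 92.8 FPKM in wt1, 85.0 in wt2, 172 in cko1 and 230 in cko2, on 3940 to 10006 reads. The groups did not overlap, and the mean was 2.26 times as high in cko (log2FC 1.15 ± 0.18 SE, adjusted p = 0.183 in limma, Benjamini-Hochberg). Of its 50-base words, 12.3% occur in Gm5530. Leaving out 1 library at a time gave a log2FC of 0.94 to 1.36, and Plscr1 missed the threshold without wt2 (log2FC 1.09) and without cko2 (0.94).

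Trim30a, a regulator of Toll-like receptor signalling, was the next most abundant effector, at 32.1, 30.0, 42.4 and 58.6 FPKM in wt1, wt2, cko1 and cko2. Both cko libraries were above both wt libraries (log2FC 0.67 ± 0.19, adjusted p = 0.230 in limma, Benjamini-Hochberg). Rtp4, a receptor transporter gene induced strongly by type I interferon, was split within cko, at 46.8 and 32.7 FPKM in wt and 17.7 and 54.0 FPKM in cko1 and cko2. The cko libraries were thus the lowest and the highest of the 4, 3.06 fold apart (log2FC -0.32 ± 0.51). The remaining tested effectors, Ifit2, Isg20, Mx1, Ifi35, Xaf1, Zbp1, Bst2 and Parp14 among them, had log2FC values between those of Usp18 and Trim30a, and none of them reached an unadjusted p under 0.05.

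**Figure D2:**
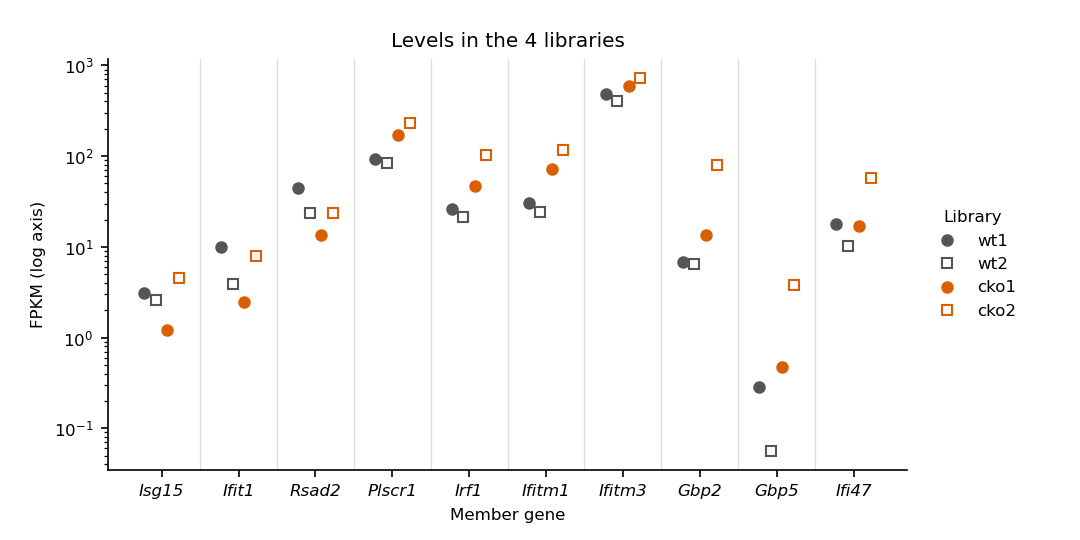
FPKM (log axis) of 10 members (x axis) in each library; filled grey circles are wt1, open grey squares wt2, filled orange circles cko1 and open orange squares cko2. Both cko libraries lie above both wt libraries for Plscr1, Irf1, Ifitm1, Ifitm3, Gbp2 and Gbp5, and not for Isg15, Ifit1, Rsad2 and Ifi47.

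Among the transcription factors, only Irf1 passed the threshold. Irf1, which is induced by interferon-gamma and by NF-kB and drives GTPase and antigen presentation genes, was at 25.9 FPKM in wt1, 21.2 in wt2, 47.4 in cko1 and 102 in cko2. Every cko library was above every wt library, and the mean was 3.17 times as high in cko (log2FC 1.53 ± 0.36 SE, adjusted p = 0.214 in limma, Benjamini-Hochberg). The 2 cko libraries differed by 2.15 fold. Irf1 missed the threshold without wt1 (log2FC 1.67), without wt2 (1.39) and without cko2 (0.99), and passed it without cko1 (2.08). It also missed the threshold with no filter on low values and with eBayes without a trend, where Ifitm1 and Plscr1 still passed.

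The 3 factors that carry or amplify type I signalling did not pass the threshold. Irf7, the amplifier of interferon-alpha transcription, was at 5.84, 4.09, 3.32 and 6.29 FPKM in wt1, wt2, cko1 and cko2 (log2FC -0.07 ± 0.31). Irf9, the DNA-binding part of the ISRE complex, was at 33.5, 28.8, 25.8 and 39.0 FPKM (log2FC 0.03 ± 0.23). Stat2, its partner, was at 4.82, 5.31, 5.73 and 8.47 FPKM, with the cko libraries above the wt libraries by a small margin in cko1 (log2FC 0.40 ± 0.22, adjusted p = 0.416 in limma, Benjamini-Hochberg).

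The RIG-I-like sensors, which detect viral RNA in the cytoplasm, did not separate by genotype. Ifih1, which encodes MDA5, was at 6.84, 5.27, 6.41 and 10.9 FPKM in wt1, wt2, cko1 and cko2 (log2FC 0.42 ± 0.27). Ddx58, which encodes RIG-I, was at 12.5, 12.05, 10.7 and 12.6 FPKM (log2FC -0.07 ± 0.16). Dhx58, which encodes the regulator LGP2, was at 6.73, 8.46, 6.36 and 7.43 FPKM (log2FC -0.12 ± 0.19). The groups overlapped in all 3 genes.

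The IFITM genes, which encode small membrane proteins that block viral fusion, include the 3 most abundant members, Ifitm3, Ifitm6 and Ifitm2. The 4 lie within 63.1 kb of chromosome 7 (chr7:140954837-141017924, GRCm38), and in all of them both cko libraries were above both wt libraries (33.6% of all tested genes were). Ifitm1 was at 30.7 FPKM in wt1, 24.5 in wt2, 72.8 in cko1 and 117 in cko2. Its mean was 3.44 times as high in cko (log2FC 1.72 ± 0.26 SE, adjusted p = 0.183 in limma, Benjamini-Hochberg), the lowest p of all members. Without 1 library at a time its log2FC was 1.38 to 2.06, and it missed the threshold only without wt2 (1.56).

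The other 3 IFITM genes were higher at a lower fold. Ifitm3, the family member best known for restricting influenza virus, was at 484, 401, 592 and 725 FPKM in wt1, wt2, cko1 and cko2 (log2FC 0.57 ± 0.17, adjusted p = 0.240 in limma, Benjamini-Hochberg). Ifitm6 was at 442, 359, 697 and 662 FPKM (log2FC 0.77 ± 0.16, adjusted p = 0.202 in the same fit). Unlike the other IFITM genes it was not higher in cko2 than in cko1. Ifitm2 was at 254, 172, 318 and 366 FPKM (log2FC 0.71 ± 0.22, adjusted p = 0.244), but 40.9% of its exon bases are overlapped on the same strand by another annotated gene, and its level is uncertain. Of 4 early neutrophil markers, 3 were also above both wt libraries in both cko libraries (75%, against 33.6% of all tested genes). Their summed level over all 4 was 1292 and 1214 FPKM in wt1 and wt2 and 1966 and 1611 FPKM in cko1 and cko2. Prtn3, a protease of primary granules, was at 267, 250, 538 and 450 FPKM, while the late neutrophil marker Camp passed the threshold downwards at 19301, 17673, 9260 and 7948 FPKM (log2FC -1.11 ± 0.17, adjusted p = 0.183 in limma, Benjamini-Hochberg). Of the 6 late neutrophil markers, 4 were lower at an unadjusted p under 0.05, against 4.95% of all genes. The part of early and late neutrophil content in the IFITM values was not tested.

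The interferon-gamma GTPases, some of which disrupt pathogen vacuoles, were highest in cko2 in all 8 cases other than Gbp5, whose direction the filter fixed. Gbp2, a guanylate-binding protein gene, was at 6.75 FPKM in wt1, 6.42 in wt2, 13.4 in cko1 and 79.0 in cko2. The groups did not overlap, but the cko libraries differed by 5.92 fold, more than cko1 differed from either wt library. Its log2FC, 2.16 ± 0.76 (SE), was the largest among the members and did not pass the threshold (adjusted p = 0.266 in limma, Benjamini-Hochberg). Without cko1 the log2FC was 3.40, and without cko2 it was 0.92.

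Gbp5, a guanylate-binding protein linked to inflammasome assembly, was at 0.285, 0.056, 0.474 and 3.77 FPKM in wt1, wt2, cko1 and cko2, on 42, 7, 59 and 443 reads. It passed the filter on low values only through cko2, its wt mean being 0.17 FPKM, so that its level had to be higher in cko (log2FC 1.19 ± 0.58). Gbp3 was at 4.19, 2.46, 3.74 and 13.4 FPKM (log2FC 0.97 ± 0.54, adjusted p = 0.416 in limma, Benjamini-Hochberg), with cko1 between the wt libraries. The 4 Gbp members lie within 144 kb of chromosome 3 (chr3:142493978-142638008, GRCm38) and had a cko2 level 2.34 to 7.95 times that of cko1. Gbp7, the remaining one, was at 6.28 to 7.87 FPKM in wt1, wt2 and cko1 and at 15.6 FPKM in cko2.

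The immunity-related GTPases were likewise highest in cko2. Ifi47, which encodes Irg47, was at 17.9 FPKM in wt1, 10.3 in wt2, 16.8 in cko1 and 57.7 in cko2 (log2FC 1.14 ± 0.58, adjusted p = 0.378 in limma, Benjamini-Hochberg). The value of cko1 lay within the wt range. Irgm1, a regulator of the family and of autophagy, was at 5.32, 2.76, 4.82 and 12.2 FPKM (log2FC 0.85 ± 0.45), again with cko1 within the wt range. Igtp, which encodes Irgm3, was at 24.5, 11.2, 19.9 and 38.0 FPKM (log2FC 0.70 ± 0.44), and shares 11.8% of its 50-base words with Irgm2, which overlaps it on the same strand. Irgm2 itself was at 3.68, 4.92, 3.96 and 6.91 FPKM, and Iigp1, an effector that oligomerises on the vacuole, at 2.08, 1.34, 1.68 and 5.52 FPKM. Of the 8 GTPases other than Gbp5, 1, Gbp2, had both cko libraries above both wt libraries (12.5%, against the 33.6% of all tested genes given above), and in the other 7 cko1 lay within the wt range.

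**Figure D3:**
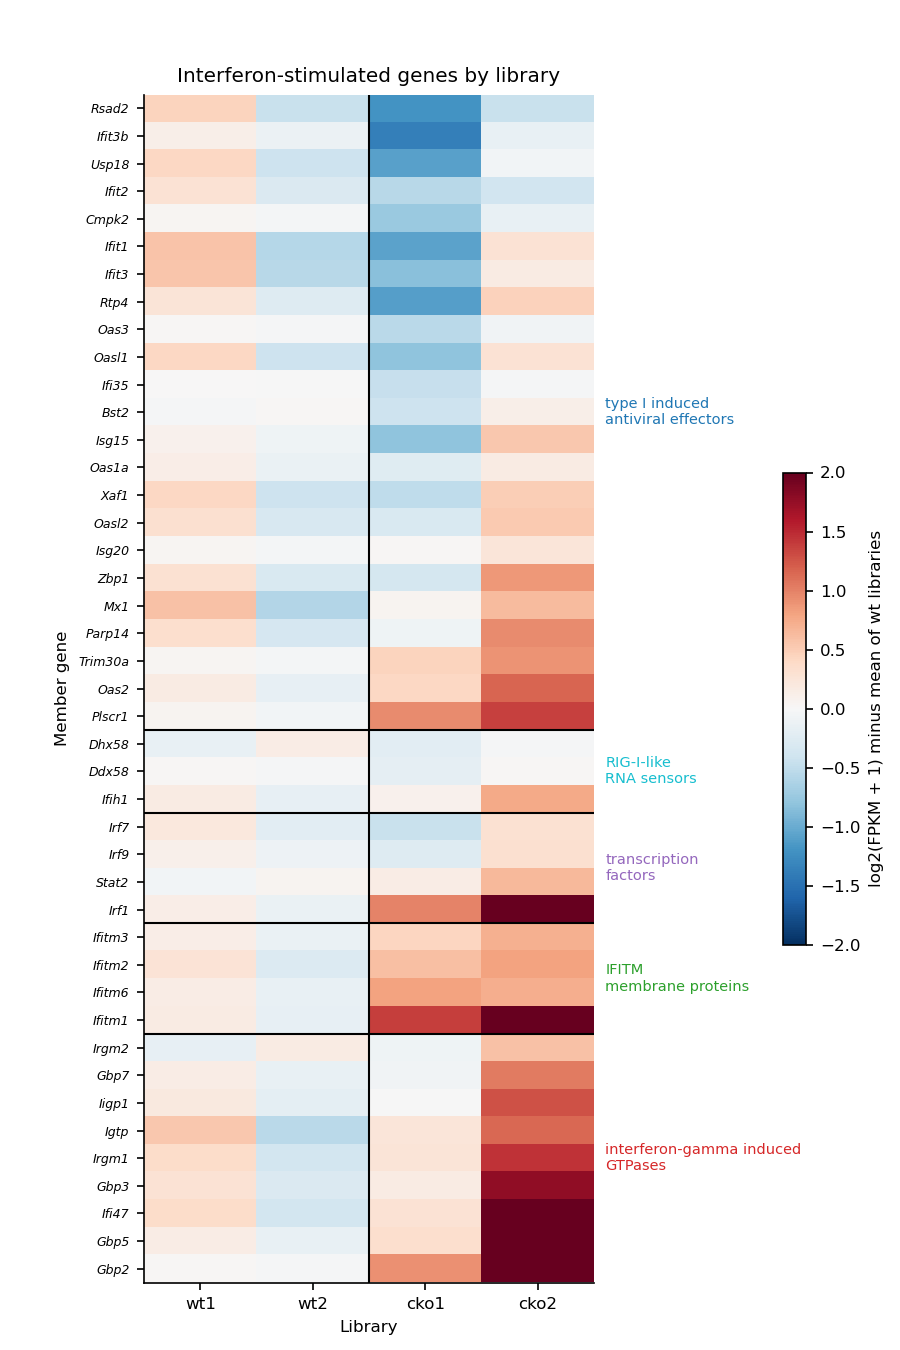
Difference of log2(FPKM + 1) from the mean of the wt libraries (colour, cut at -2 and 2) for the 43 tested members (rows, by group and within a group by log2FC) in wt1, wt2, cko1 and cko2 (columns). The cko1 column is low over most type I effectors, the cko2 column is high over the interferon-gamma GTPases, and both cko columns are high for Plscr1, Irf1 and the IFITM genes.

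The libraries of a genotype differed in a shared way over most members. In 38 of the 43 tested members (88.4%) wt1 was above wt2 and cko2 above cko1, against 27.2% of all tested genes, and in 37 of the 42 other than Gbp5. For the type I effectors this held in 22 of 23, with a median ratio of 1.43 for wt1 over wt2 and of 1.80 for cko2 over cko1. For the interferon-gamma GTPases other than Gbp5 it held in 7 of 8, with median ratios of 1.63 and 2.92. The library cko1 was the lowest of the 4 in 16 of the 23 type I effectors and in 0 of these 8 GTPases, where 18.4% of all genes had their lowest value in it. The library cko2 was the highest in 13 of the 23 effectors and in all 8 of these GTPases, where 33.8% of all genes had their highest value in it. Members of a group share their libraries and are no replicates, and these counts describe 4 libraries.

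Relative to the mean of the wt libraries, the median difference of the type I effectors on the log2(FPKM + 1) scale was 0.25 in wt1, -0.25 in wt2, -0.51 in cko1 and 0.29 in cko2. That of the 9 interferon-gamma GTPases, Gbp5 included, was 0.20, -0.20, 0.25 and 1.44. Gbp5 had to be higher in cko because of the filter, and these medians were not computed without it. The medians of all tested genes stayed between -0.02 and 0.09 in the 4 libraries. The median of the GTPases was thus near that of wt1 in cko1, which was below wt1 in 6 of the 8 other than Gbp5, and above both wt libraries in cko2. The median of the type I effectors was below both wt libraries in cko1 and near that of wt1 in cko2. Without cko1 the median log2FC was 0.29 for the type I effectors and 1.44 for the GTPases, Gbp5 included. Without cko2 these medians were -0.51 and 0.25, and without wt2 they were -0.25 and 0.48.

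**Figure D4:**
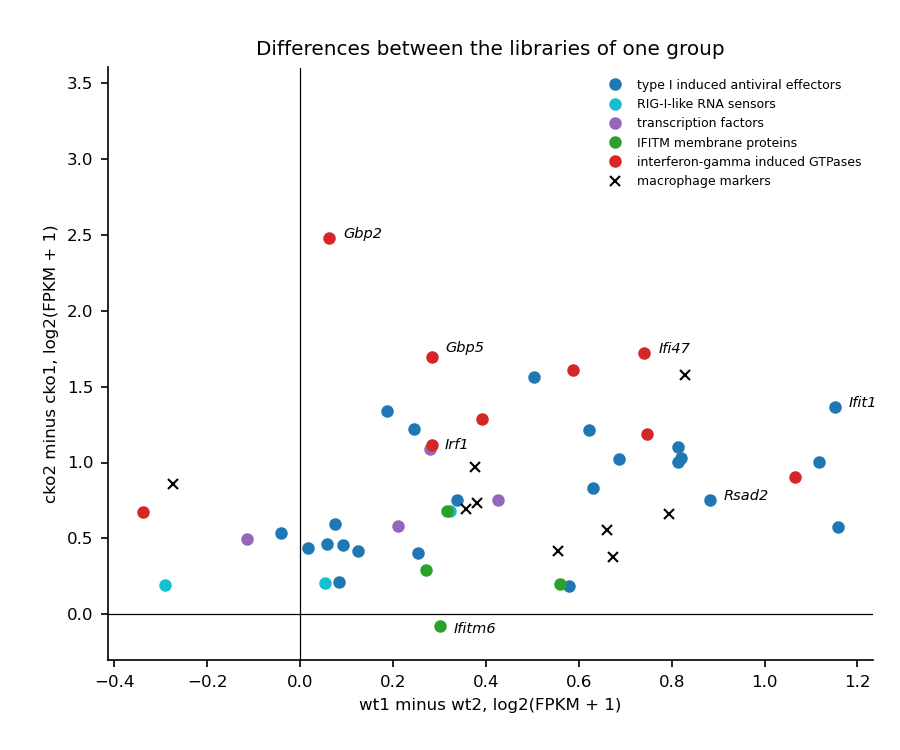
Difference on the log2(FPKM + 1) scale between wt1 and wt2 (x axis) and between cko2 and cko1 (y axis) for the 43 tested members, coloured by group, and for 9 macrophage markers (crosses). Of the members, 38 lie above 0 on both axes, as do 8 of the 9 macrophage markers.

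Markers of macrophages ordered the libraries in a like way. Of 9 markers, 8 were higher in wt1 than in wt2 and in cko2 than in cko1, and their summed level was 402 FPKM in wt1, 286 in wt2 and 291 in cko1 and was 1.72 times the level of cko1 in cko2. Marco, a scavenger receptor gene, was at 44.0, 24.3, 30.8 and 94.0 FPKM, Vsig4 at 23.0, 14.1, 13.3 and 17.7 FPKM and C1qa at 118, 91.8, 86.5 and 140 FPKM. This order was not particular to macrophage markers, since 4 of the 5 monocyte markers had it too. The summed megakaryocyte markers were 2.32 times as high in wt1 as in wt2 and 1.72 times as high in cko2 as in cko1. Of these only Pf4 was higher in cko2, at 6.88 and 14.3 FPKM in cko1 and cko2. Itga2b was at 1.98 and 1.56 FPKM and Gp1bb at 0.65 and 0.51 FPKM in cko1 and cko2. The summed erythroid markers had ratios of 1.48 and 1.07, while the late neutrophil sum was lower in cko2 than in cko1. Monocyte markers were at a summed level of 449 to 458 FPKM in wt1, wt2 and cko1 and of 546 FPKM in cko2. Of these 5 markers, 4 were highest in cko2, among them Csf1r, the receptor for the growth factor of these cells, at 40.9, 33.0, 45.6 and 113 FPKM. Ly6c2, which made up most of the sum, was lowest in cko2, at 343, 360, 333 and 315 FPKM. Plasmacytoid dendritic cells, the main source of type I interferon in viral infection, left almost no trace: their 5 markers summed to 0.34 to 1.03 FPKM, and Cox6a2, Klk1 and Pacsin1 were each listed at 0 in at least 1 library. The part of macrophage or monocyte content in the order of the libraries was not tested.

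Few reads came from Ifng and Ifnk, the 2 interferon genes analysed. Ifng, which encodes interferon-gamma, had 3, 1, 8 and 9 reads in wt1, wt2, cko1 and cko2 (0.10, 0.041, 0.33 and 0.39 FPKM), and Ifnk had 3 to 10 reads. Ifnb1, the first type I interferon made by most cells, and 7 further interferon genes were looked up by symbol and had no row. No level can be given for them. Of genes of T and NK cells, which make interferon-gamma, Cd3e was listed at 0 in wt1, wt2 and cko2. Cd3d was at 6.50, 7.55, 4.62 and 3.15 FPKM in wt1, wt2, cko1 and cko2, and Nkg7 at 15.7, 10.8, 21.8 and 11.8 FPKM. Ncr1, a gene of NK cells, was at 1.84, 1.38, 0.17 and 1.03 FPKM. The part of T or NK cells in the values of the members was not tested.

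The receptors were expressed at moderate to high levels, and none passed the threshold. Ifngr1, the ligand-binding chain of the interferon-gamma receptor, was at 121, 112, 158 and 204 FPKM in wt1, wt2, cko1 and cko2 (log2FC 0.62 ± 0.17, adjusted p = 0.222 in limma, Benjamini-Hochberg). Ifngr2, its signalling chain, was at 44.1, 40.8, 38.1 and 47.3 FPKM (log2FC 0.00 ± 0.17). Ifnar2, a chain of the type I receptor, was at 22.2, 20.1, 33.0 and 35.3 FPKM (log2FC 0.67 ± 0.15, adjusted p = 0.210 in the same fit), and Ifnar1, the other chain, was at 7.73, 7.61, 9.52 and 15.9 FPKM (log2FC 0.62 ± 0.25). Of the 6 receptor genes tested, 5 had both cko libraries above both wt libraries (83.3%, against 33.6% of all tested genes).

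The kinases also stayed within 1 log2 unit. Jak2, which serves the interferon-gamma receptor, was at 4.46, 3.90, 5.60 and 8.33 FPKM (log2FC 0.60 ± 0.23), Jak1 at 47.1, 49.8, 58.4 and 64.2 FPKM (0.33 ± 0.14) and Tyk2 at 6.52, 6.77, 8.43 and 8.60 FPKM (0.32 ± 0.16). All 3 had both cko libraries above both wt libraries, against the same 33.6% of all genes. Among 6 brakes on the pathway, 0 passed the threshold and 3 were higher in cko at an unadjusted p under 0.05 (50%, against 11.4% of all tested genes), the STAT-induced inhibitors Socs1 and Socs3 and the phosphatase gene Ptpn11. Socs3 was at 37.1, 16.2, 65.3 and 216.5 FPKM (log2FC 2.23 ± 0.63, adjusted p = 0.228 in limma, Benjamini-Hochberg).

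Further targets that are no members were read from lists by the same division. Of 45 further type I targets, 38 were tested, with a median log2FC of 0.03, 22 above 0 and 16 below, and 0 past the threshold in either direction. At an unadjusted p under 0.05, 2 of them were higher (Slfn4 and Ly6e) and 2 lower (Ifi27 and Ube2l6), against 11.4% and 4.95% of all genes. Both cko libraries were below both wt libraries in 12 of the 38 and above them in 6, against 18% and 33.6% of all tested genes. These 2 counts were not computed under the other scalings. Of 19 further interferon-gamma targets, 8 were tested, and 3 of these, Nos2, Gbp4 and Cxcl9, passed the filter only through cko, which fixed their direction. The other 5 were above 0 and highest in cko2. Of the 11 targets under the filter, 5 were highest in cko2, while 5 had a lower mean in cko than in wt, among them Gbp8, Ido1 and Ciita. Of the 8 tested, 1 passed the threshold, Cxcl10, a chemokine gene whose product draws T cells, at 5.98 FPKM in wt1, 2.03 in wt2, 16.3 in cko1 and 73.8 in cko2 (log2FC 2.97 ± 0.74 SE, adjusted p = 0.214 in limma, Benjamini-Hochberg). Both cko libraries were above both wt libraries, 4.53 fold apart from each other. Cxcl10 answers to NF-kB as well as to interferons, and it missed the threshold without wt1 (log2FC 3.57), without wt2 (2.37) and without cko2 (1.91), as well as with median-of-ratios scaling, with no filter and with eBayes without a trend. Cd274, which encodes the PD-1 ligand PD-L1, was at 3.29, 0.29, 4.18 and 22.9 FPKM (log2FC 2.24 ± 0.86). Among 9 tested sensors and inducers, the kinase gene Tbk1 was at 29.6, 27.4, 51.5 and 46.8 FPKM (log2FC 0.76 ± 0.14, adjusted p = 0.199 in the same fit) and was higher in cko1 than in cko2.

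Mx2, Herc6, Ifi44 and Oas1g, the 4 members under the filter, had mean levels of 0.18 to 0.84 FPKM. Mx2 had 0 reads in wt1, which allows up to 0.0374 FPKM, and 12 to 21 reads in the other libraries. Ifi44 was at 1.74 FPKM in wt1 on 237 reads and at 0.11 to 0.30 FPKM in the other 3 libraries on 13 to 33 reads, so that 1 library held most of its reads. Just inside the filter were Gbp5 at a mean of 1.15 and Oasl1 at 1.78 FPKM, and just outside it was Oas1g at 0.84 FPKM.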

How the data were processed

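The authors deposited 1 file of FPKM values per gene for each of the 4 libraries; per the labels' processing notes Bowtie2 2.2.3, TopHat2 2.0.12 and HTSeq 0.6.0 were used with the build mm9, but 92.61% of the deposited gene positions were identical to GENCODE M21 on GRCm38, and positions are given on that build. Samples were grouped by the genotype label, and the members and all gene lists were chosen with earlier results of these data known. FPKM values were whole multiples of 1 read (within 0.01 of a whole number for 99.97% or more of the single-exon genes checked), which gave each library's total, and the reads behind the values from the annotated length for 91.17% of the listed genes and from a searched length for 7.57%; at 1 kb, 1 read is worth 0.0450 to 0.0565 FPKM.

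The cko and wt libraries were compared by limma 3.58.1 (R 4.3.3; lmFit, then eBayes with a trend, two-sided) with genotype as the only term, on log2(FPKM + 1). Genes averaging 1 FPKM or more over the 4 libraries entered the fit (10779), and p-values were adjusted over them by Benjamini-Hochberg. Fold changes are on that scale and understate the change of low genes. With 2 libraries against 2, an exact permutation test cannot go below p = 0.333 and was not used. On simulated data for this comparison, 174 of 185 changed genes were recovered with 6 false calls. In that simulation the changed genes moved by 2 log2 units, up or down. Every gene had the same spread beyond read sampling, and the libraries of a group did not differ in a shared way. It therefore gives no rate of recovery or of false calls for smaller changes or for libraries that differ as these do. Values in each library are given for members past |log2FC| above 1 with p under 0.01, for the 5 largest changes and 3 highest means in each group, and for pathway genes past that threshold, the receptors and kinases; Isg15, Ifit1, Usp18, Cmpk2, Oas3, Gbp7, Irgm2, Iigp1, Socs3, Cd274, Tbk1, Camp and the other targets named beside Cxcl10 were added after their values were seen. Promoters came from the RefSeq table (GRCm38.p6), and 50-base words shared between genes were counted in GENCODE M21 transcripts. A pathway gene is not reported here.

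Alternatives covered the pseudocount, the filter, 3 scalings, eBayes without a trend, a replicate block, voom applied to the recovered reads, and each library left out in turn, where the lone library of a group is assumed to vary like the pair of the other group. A crossed pairing and the log2 ratio of the group means were chosen later, with the data in view. Same-numbered libraries did not deviate together (r = -0.163 across genes), and no source says that a number marks a shared litter or day.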

Additional observations from a re-analysis of the deposited data

How the results depend on the processing

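The count of members past |log2FC| above 1 with p under 0.01, 3 higher and 0 lower, ranged from 0 to 9 higher and from 0 to 1 lower when 1 library was left out; wt2 removed every call, cko1 raised them to 9 and cko2 left 1 higher and 1 lower. At p under 0.05 the 9 higher and 0 lower members became 4 to 17 higher and 0 to 7 lower, and voom gave 1 lower. Members with every cko library above or below every wt library numbered 11 and 6. They became 17 and 0 with TPM scaling and with erythroid and hepatocyte genes removed. Without 1 library they were 11 to 32 and 6 to 20, but a lone library lies apart from a pair more easily than 2 libraries do. The share of all tested genes that lay apart was not computed under these settings. The counts of all genes past the fold threshold, given below, moved when 1 library was left out too. Gbp5, whose direction the filter fixed, is counted among the members here. The cause of the changes was not tested.

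Over all tested genes (203 higher, 44 lower), a minimum mean of 5 FPKM gave 101 and 25, no filter 27 lower, median-of-ratios scaling 72 lower, TPM scaling 468 higher, removal of erythroid and hepatocyte genes 350 and 17, and leaving out 1 library 108 to 393 and 23 to 70. At the adjusted threshold voom called 2 genes and the crossed pairing 1, none of them a member. The median of the RNA sensors (-0.07) was -0.18, 0.13 and 0.12 with median-of-ratios scaling, TPM scaling and erythroid and hepatocyte genes removed, and that of the IFITM genes (0.74) was 0.95 under the latter pair and 0.53 to 0.95 without 1 library. The replicate number as a block called the same 3 members, and of the named genes it ended only the call of Cxcl10, whose log2FC stayed at 2.97. The crossed pairing of wt1 with cko2 and wt2 with cko1 gave 5 members higher at the fold threshold, and 14 higher and 3 lower at p under 0.05. For the 31 named genes, 470 of 493 values under alternatives were counted as unchanged, and 15 lost and 8 gained a call. No called value changed sign, while 18 values of uncalled genes did. The 493 include the log2 ratio of the group means, which has no p-value and counted as unchanged unless a called gene changed sign. Of the named genes only Ifitm1, Plscr1, Irf1 and Cxcl10 were called in the main fit, so that most unchanged values are of uncalled genes. With 2 libraries in a group, a gene spread as widely as Gbp2 was not called, and values under 1 FPKM rest on few reads.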
